A study of Mus musculus with 4 samples.

Results

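The cells of a 10 M mouse lung library were compared with those of a 2 M library, cell type by cell type. The lung cells came from male, wild type C57BL/6 mice, and 1 library came from each of 4 ages, with a newborn (NB) and an 18 M library beside these. The 2 M and 10 M groups had no treatment or transgene in the labels and differed in age, 2 months against 10 months. The lungs were digested with collagenase D and DNase1, dead cells were removed, and the transcripts were counted by 10x droplet sequencing as UMIs, each standing for 1 captured molecule. The labels do not give the number of mice behind a library, so age, mouse and library cannot be told apart, and with 1 library a side no test was made.

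Barcodes with 200 genes or fewer, with 5000 genes or more, with over 25000 UMIs or with 8% or more of mitochondrial UMIs were set aside. This left 5537 of 6283 barcodes in 2 M and 7862 of 9091 in 10 M, 13399 of the 28153 kept cells of the 4 libraries. The deposited counts summed to 33087004 UMIs in 2 M and 49643548 in 10 M, and a kept cell had a median of 4180 and 3998.5 UMIs. The kept cells of 2 M and 10 M shared 14 barcodes. Cells of all 4 libraries were clustered together, and clusters were given to 9 broad types by fixed markers, which took in 5263 cells of 2 M and 7311 cells of 10 M. In all, 4 clusters with the defining markers of 2 types, as doublets of cells would give, and 1 other cluster were left without a type, 112 cells of 2 M and 196 of 10 M.

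The lung holds resident lymphocytes, macrophages that live on the alveolar surface and clear surfactant, and a structural compartment. In the latter, pulmonary fibroblasts (pFBs) make collagen and elastin, endothelial cells line the capillaries, and alveolar type II cells secrete surfactant. With age, lung T cells are known to pass from naive to effector and memory states, and the matrix around the alveoli is remodelled.

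Each type was checked against its defining marker. Cd3e, a chain of the T cell receptor complex, had a UMI in 64.5% of T cells in 2 M and 65.2% in 10 M, against 0.509% and 0.295% of B cells. Cd79a, a signalling chain of the B cell receptor, was found in 97.0% of B cells in either library. Ncr1, an activating receptor of NK cells, had a UMI in only 22.2% and 21.3% of NK cells, and that type rested mainly on other markers such as Gzma. Csf3r marked 91.4% and 87.5% of neutrophils, Plet1 98.4% and 97.9% of alveolar macrophages, Csf1r 82.4% and 72.2% of the monocytes and other macrophages, Dcn 91.5% and 90.2% of pFBs, Cdh5 89.5% and 88.1% of endothelial cells and Lamp3 100% and 97.1% of alveolar type II cells. All markers listed for these types and present in the files had a UMI in over 10% of the cells of their type in both libraries. In pFBs the median marker was found in 80.3% of cells in 2 M and 62.5% in 10 M, the widest gap of the types. A defining marker of another type, Plet1 aside, was found in 52.9% of Csf1r monocytes and macrophages in 2 M and 37.5% in 10 M. No cluster was named for alveolar type I cells, eosinophils or mesothelial cells.

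The 10 M library held a smaller share of lymphocytes and a larger share of structural and myeloid cells. T, B, NK and other lymphoid cells made up 85.7% of the kept cells in 2 M and 77.3% in 10 M, structural cells 3.77% and 8.33%, and myeloid cells 7.26% and 9.90%. By the ratio of shares the pFBs stood highest of the 9 types, beside the Csf1r monocytes and macrophages, whose interval overlapped theirs. The pFBs numbered 94 cells or 1.70% (exact 95% binomial interval 1.37 to 2.07%) in 2 M and 407 cells or 5.18% (4.70 to 5.69%) in 10 M, 3.05 times the share (95% interval of the ratio 2.43 to 3.86). The Csf1r monocytes and macrophages went from 17 cells or 0.307% to 72 cells or 0.916%, a ratio of 2.98 (1.74 to 5.40). Alveolar type II cells went from 38 to 103 cells, 1.91 times the share (1.30 to 2.85), and alveolar macrophages from 126 to 236 cells, 1.32 times (1.06 to 1.65). The T cell share was lower, 27.2% in 2 M and 22.1% in 10 M (ratio 0.812, 0.757 to 0.870). For B cells (49.6% and 47.4%, ratio 0.955, 0.909 to 1.003), NK cells (8.56% and 7.59%, ratio 0.887, 0.785 to 1.003), neutrophils (4.01% and 4.68%, ratio 1.17, 0.986 to 1.39) and endothelial cells (38 and 67 cells, ratio 1.24, 0.822 to 1.90) the interval included 1. The intervals, here and for levels, allow for counting error alone and treat UMIs of 1 cell as independent, while differences from mouse to mouse or digestion to digestion are not in them. A share of recovered cells depends on how well each type was released from the tissue.

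**Figure D1:**
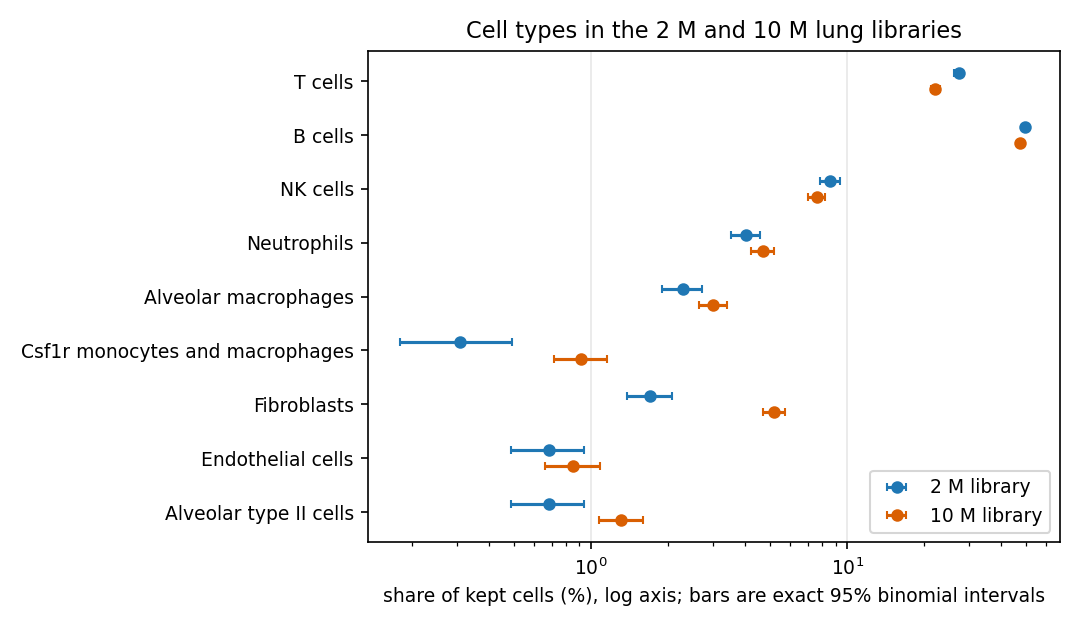
Share of the kept cells (percent, log axis) in each of 9 types in the 2 M library (blue) and the 10 M library (orange), with exact 95% binomial intervals. The 2 points stand far apart for pFBs, 1.70% against 5.18%, and for Csf1r monocytes and macrophages, while those of B cells, at 49.6% and 47.4%, are close.

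The UMIs of each type were then summed within a library and given per 1000000 UMIs of that sum (CPM, counts per 1000000). A gene was tested where both libraries together had at least 30 UMIs in at least 15 cells, and was called higher or lower when the ratio of CPM, 10 M over 2 M, was at least 2 or at most 0.5 and its exact 95% interval excluded 1. The share of tested genes that were called was uneven over the types. In T cells 340 of 10270 genes were higher (3.31%) and 116 lower (1.13%), and in pFBs 285 of 8835 were higher (3.23%) and 123 lower (1.39%). In B cells, the most numerous type, 52 of 10441 genes were higher (0.498%) and 88 lower (0.843%), and in NK cells 45 of 8188 were higher (0.55%) and 85 lower (1.04%). Endothelial cells had 141 higher (3.84%) and 213 lower (5.81%) of 3668 genes, on few cells. The split of higher against lower depends on the scaling. With TMM factors, which centre the ratios of most genes near 0, endothelial cells had 217 higher and 134 lower, B cells 71 and 59, and NK cells 64 and 62. Because the number of calls depends on the UMIs summed, each type and library was also thinned to 164435 UMIs. At that equal total the percentages higher and lower were 2.99 and 1.70 in T cells, 3.06 and 2.72 in pFBs and 0.879 and 1.41 in B cells. They were 1.01 and 1.59 in NK cells and 3.86 and 6.25 in endothelial cells. B cells and NK cells were then no longer the lowest in higher calls. Neutrophils (0.831) and alveolar macrophages (0.842) stood below them, so the order of the types depends on the UMIs summed.

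T cells of the 10 M library had higher levels of genes of effector and memory cells. Of the 20 genes of that list, all tested, 17 were higher and 0 lower in 10 M, against 3.31% of all tested T cell genes higher and 1.13% lower. The list's median log2 ratio was 1.94, where the median over all tested genes of T cells was -0.04. Gzmk, a granzyme of memory T cells that can express several cytokines, had 11 UMIs in 7 of 1506 T cells in 2 M and 432 UMIs in 207 of 1736 T cells in 10 M, 1.17 and 41.2 CPM, a ratio of 35.3 (19.5 to 71.2). Ccl5, a chemokine stored by memory CD8 T cells, stood at 651 CPM in 2 M and 4718 CPM in 10 M, 7.25-fold (7.06 to 7.44), and Ccl4, another chemokine, at 17.8 and 220 CPM (12.3-fold). Eomes and Tbx21, the transcription factors of the effector programme, were 5.71-fold (4.77 to 6.87) and 6.77-fold (4.72 to 9.99) higher. Ifng, the cytokine they control, went from 7.01 to 46.7 CPM. The calcium-binding proteins S100a4 and S100a6, known from T cells that have met antigen, were 4.56-fold and 4.77-fold higher.

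Genes of killing and of NK receptors showed the same direction in T cells. These lists are not separate results. The killing list shares Gzma, Gzmb, Gzmk, Nkg7 and Ifng with the effector and memory list, and Klrk1 with the killer lectin-like receptors. The counts of this paragraph stand beside 3.31% of all tested T cell genes higher and 1.13% lower. Of the 12 killing genes 11 were tested, and 9 were higher and 0 lower (median log2 ratio 1.95), among them Gzma (21.4 and 271 CPM), Gzmb (10.9 and 77.4 CPM), Fasl (21.4 and 81.4 CPM) and Prf1, the pore-forming protein (3.93 and 9.16 CPM). Of 16 killer lectin-like receptor genes 12 were tested and 8 were higher, including Klrk1 (22.3 and 86.3 CPM) and Klrg1 (2.12 and 9.07 CPM). Klrb1c had 0 UMIs in 2 M and 33 UMIs in 20 cells in 10 M, at least 9.89-fold higher against a floor of 3 UMIs (exact 95% lower bound 7.60-fold). Of 14 checkpoint and costimulatory genes, 4 were higher: Pdcd1, the receptor PD-1 (5.95 and 17.6 CPM), Lag3 (2 and 32 UMIs), Havcr2 (8 and 43 UMIs) and Tnfrsf9 (17.8 and 47.6 CPM). Ctla4 was at 123 and 170 CPM, below the 2-fold line. Foxp3, the factor of regulatory T cells, had only 45 and 67 UMIs, a ratio of 1.34 (0.904 to 2.00). Il10, an anti-inflammatory cytokine, had 2 UMIs in 2 cells in 2 M and 54 UMIs in 13 cells in 10 M.

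Genes of naive T cells were at lower levels, none past the 2-fold line. The list's 13 genes were all tested, 0 were called, and 12 had a ratio under 1 (median log2 ratio -0.61). Ccr7, which guides naive T cells to lymph nodes, was at 754 CPM in 2 M and 441 CPM in 10 M (ratio 0.585, 0.564 to 0.607). Lef1, a factor of naive T cells, was at 579 and 348 CPM and S1pr1, needed to leave lymph nodes, at 484 and 295 CPM. Klf2, which controls S1pr1, was level at 608 and 622 CPM. After each cell was thinned to 1000 UMIs, which left out 2 T cells in 2 M and 3 in 10 M, Ccl5 had a UMI in 10.6% of T cells in 2 M and 38.1% in 10 M (20.1% and 45.3% unthinned, with 6.00% and 7.36% of B cells as background). By the same count Lef1 went from 42.0% to 25.3%, Eomes from 0.931% to 7.39% and S100a6 from 3.32% to 18.8%. Cd4 was found in 7.78% and 5.89% of thinned T cells and Cd8b1 in 10.4% and 11.9%.

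**Figure D2:**
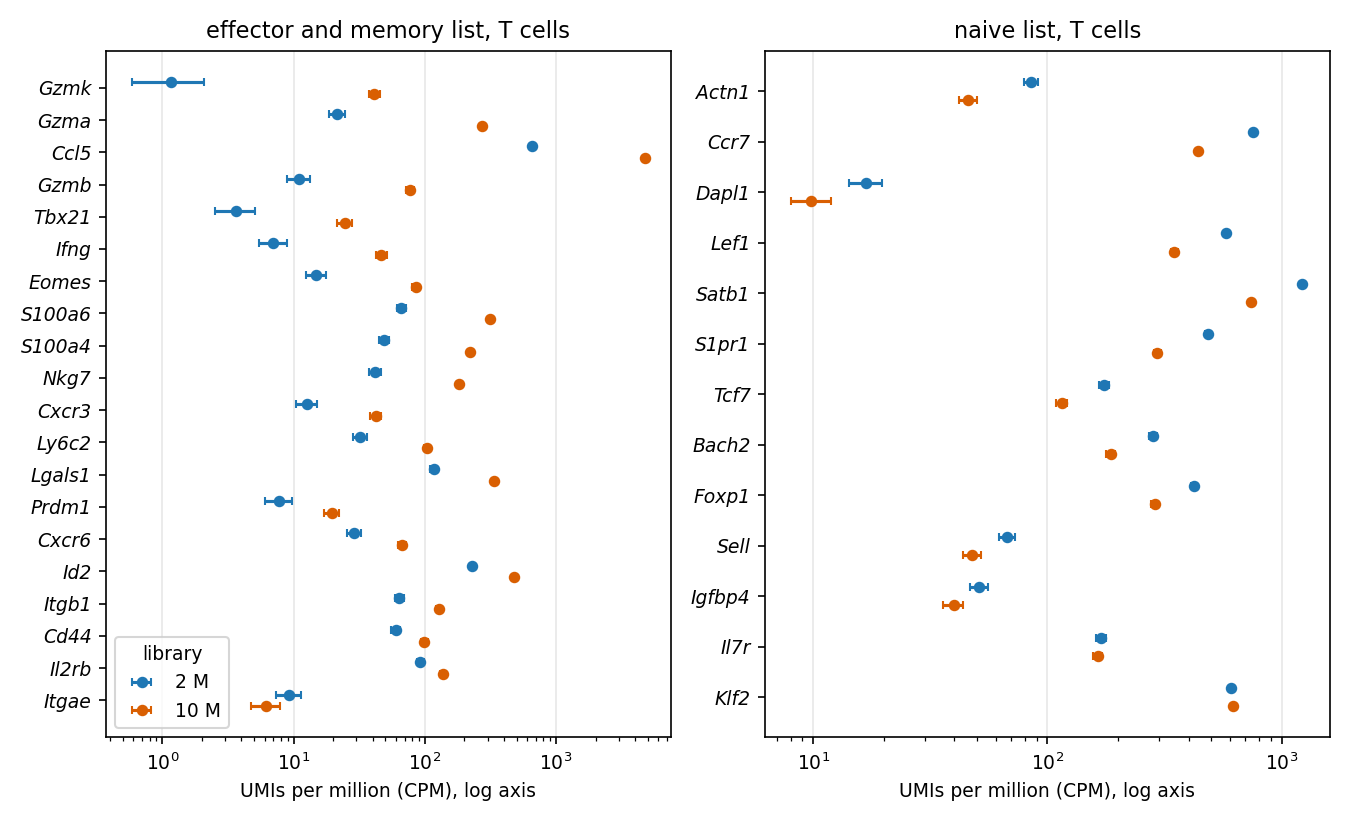
Levels in T cells (CPM, log axis) of the effector and memory list (left) and the naive list (right) in the 2 M library (blue) and the 10 M library (orange), with exact 95% Poisson intervals. On the left 19 of 20 genes lie to the right in 10 M, Gzmk and Ccl5 by a wide margin, and on the right 12 of 13 lie to the left.

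The T cells of both libraries lay in the same clusters, at different shares. In 2 M, 47.5% of T cells were in a cluster led by Lef1 and Cd4 and 38.7% in one led by Cd8b1 and Lef1. In 10 M these clusters held 24.2% and 23.2%. A cluster led by Gzmk and Cd8b1 held 2.06% in 2 M and 23.4% in 10 M. One led by Ctla4 held 4.78% and 11.2%, one led by Ikzf2 and Cd8b1 4.38% and 10.5%, and one led by Il17a 2.19% and 6.91%. The clusters were built on the same genes, so their sizes are no separate result. With the 10 M cells of each cluster weighted to the 2 M numbers, the median log2 ratio of the effector and memory list was 0.24, that of the killing genes 0.20, that of the killer lectin-like receptors -0.18 and that of the naive genes -0.35. This weighting was chosen after the data were examined. At that makeup Gzmk was still at a log2 ratio of 1.81, Gzma at 1.22 and Eomes at 0.94, while Ccl5 was at 0.36, Gzmb at 0.22, Pdcd1 at -0.56, Havcr2 at -0.63, Klrg1 at -0.56, Klrk1 at -0.24 and Tnfrsf9 at -0.10.

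By the size of the interval bound nearest 1, the other leading genes of T cells were Mt3, a metallothionein (1 and 46 UMIs), and on the lower side Slc15a2, a peptide transporter, with 248 UMIs in 197 cells in 2 M and 48 UMIs in 40 cells in 10 M (26.3 and 4.58 CPM, ratio 0.174, 0.125 to 0.238). Fgfbp3, an FGF binding protein, was at 7.43 and 1.43 CPM. The chemokine receptor Ccr9, which directs T cells to the gut, was at 13.9 and 4.49 CPM, and Ccr1 at 3.19 and 0.573 CPM. St8sia6, a sialyltransferase, was at 35.6 and 13.3 CPM and Smo, the hedgehog signal transducer, at 7.43 and 2.10 CPM.

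B cells differed little between the libraries. Of 12 follicular B cell genes 10 were tested, and of 13 age-associated B cell genes 8, and 0 were called in either list, with median log2 ratios of -0.19 and -0.36 beside -0.10 over all genes tested. Cd74, the invariant chain that chaperones MHC class II, was at 13507 and 15156 CPM, and the class II chain H2-Aa at 4948 and 5594 CPM. Fcer2a, the low-affinity IgE receptor of follicular B cells, was at 160 and 102 CPM (ratio 0.638, 0.594 to 0.685). Genes of immunoglobulin constant regions are not in the tables. By the interval bound nearest 1, the leading B cell genes were the stress-induced chaperones Hspa1a, with 76 UMIs in 47 cells in 2 M and 625 UMIs in 130 of 3725 cells in 10 M (6.28-fold, 4.94 to 8.07), and Hspa1b (6.01-fold, 4.67 to 7.86). The mineralocorticoid receptor Nr3c2 (3 and 30 UMIs), Xlr3b (10 and 60 UMIs), the leukotriene cofactor Alox5ap (1.74 and 6.19 CPM) and Pltp, a phospholipid transfer protein (2.61 and 8.25 CPM), followed. On the lower side stood Slc15a2, at 51.4 and 11.7 CPM (ratio 0.228), Fgfbp3 (5.02 and 0.958 CPM) and Igf1r, the IGF1 receptor (17.3 and 5.30 CPM).

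Fabp4 and Plet1, on the lower side in B cells, are genes of alveolar macrophages. Fabp4, a fatty acid binding protein, was at 9.94 and 1.40 CPM in B cells and Plet1 at 20.4 and 6.04 CPM. Plet1 also had a UMI in 6.64% of T cells in 2 M and 3.40% in 10 M, and in alveolar macrophages themselves it was at 9300 and 8549 CPM and Fabp4 at 2187 and 1474 CPM. The part of free macrophage RNA in these B cell values was not tested.

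NK cells, all in a single cluster, also differed little. Of the 10 mature NK cell genes, all tested, 0 were called (median log2 ratio -0.06), and of the 9 killing genes tested 0 were called. Gzma was at 4577 CPM in 2 M and 4996 CPM in 10 M, Prf1 at 213 and 263 CPM, Gzmb at 464 and 618 CPM. Of the 11 immature NK cell genes 10 were tested and 3 were higher, against 0.55% of all genes: Kit, the receptor of stem cell factor (22.5 and 49.0 CPM), the IL-7 receptor chain Il7r (9.10 and 29.1 CPM) and the chemokine receptor Cxcr3 (6.71 and 16.3 CPM). The leading genes were Gng11, a G protein subunit known from platelets and endothelium (1 UMI and 29 UMIs in 16 cells), Spp1, osteopontin (8 and 45 UMIs), Bcl2a1b, a survival protein (93.9 and 219 CPM), and Gphn, gephyrin (3.35 and 13.9 CPM). Bcl2a1b has near-identical copies, so its reads may be shared with them. Lower were the receptor tyrosine kinase Ret (73 and 24 UMIs), Tmem108 (11.5 and 2.39 CPM), Rnf43, which removes Wnt receptors (42.2 and 15.5 CPM), the insulin-degrading enzyme Ide (111 and 49.4 CPM), the serpin Serpinb9b (133 and 61.8 CPM) and the ubiquitin ligase Mid1 (16.8 and 5.18 CPM). Some of these genes moved alike in other lymphocytes. Ide was at 37.9 and 18.6 CPM in T cells and 42.2 and 17.5 CPM in B cells. Mid1 was at 14.9 and 8.21 CPM in T cells and 29.3 and 12.7 CPM in B cells. Bcl2a1b was at 77.4 and 217 CPM in T cells but 450 and 369 CPM in B cells. Ret and Rnf43 went the other way in T cells, at 2.12 and 13.6 CPM and at 2.76 and 5.15 CPM.

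In neutrophils 28 (0.785%) of 3568 genes were higher and 138 (3.87%) lower, and the median log2 ratio over all of them was -0.20. TMM scaling raised every log2 ratio of this type by 0.28 and turned the split to 76 higher and 46 lower, so the levels below are to be read beside that shift. Lrg1, a glycoprotein of neutrophil granules, had 47 UMIs in 36 of 222 cells in 2 M and 324 UMIs in 160 of 368 cells in 10 M (66.6 and 285 CPM, 4.27-fold, 3.14 to 5.93). Wfdc17, a secreted protease inhibitor-like protein, was at 925 and 2259 CPM (2.44-fold), and Igfbp6, the type I BMP receptor Bmpr1a and the stefin Stfa1 were 3.67-, 4.49- and 3.25-fold higher. The alarmins S100a8 and S100a9 were at 51595 and 60122 CPM and at 77946 and 97180 CPM. Of 13 granule genes 10 were tested and 4 were lower (Ngp, Ltf, Chil3 and Cd177), with a median log2 ratio of -0.64. Ngp, made by immature neutrophils, had 303 UMIs in 8 cells in 2 M and 14 UMIs in 12 cells in 10 M, so its 2 M level rested on a few cells. Ltf, lactoferrin, had 116 UMIs in 34 cells and 56 UMIs in 45 cells (164 and 49.2 CPM). Il1b and Cxcl2, the inflammatory genes at the highest levels, were at 10272 and 10620 CPM and at 42497 and 51278 CPM. Adss, of purine synthesis, was at 68.0 and 18.4 CPM and Cybb, a subunit of the NADPH oxidase, at 79.3 and 26.4 CPM. Ccl5 had 99 UMIs in 15 cells and 42 UMIs in 30 cells. It is a T and NK cell gene, and with cells holding defining markers of 2 types left out its log2 ratio changed sign, from -1.92 to 0.71.

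Alveolar macrophages of the 10 M library had several-fold higher levels of MHC class II genes, with their identity genes level. MHC class II molecules carry peptides to CD4 T cells, with Cd74 as their chaperone and H2-DM as the peptide loader. Of the 10 class II genes 8 were tested and 5 were higher, 0 lower (median log2 ratio 2.32), where 1.47% of the 8120 genes tested were higher and 0.837% lower and the median of all was -0.03. H2-Aa had 260 UMIs in 48 of 126 cells in 2 M and 3565 UMIs in 209 of 236 cells in 10 M, 122 and 990 CPM (8.09-fold, 7.13 to 9.22). H2-Eb1 was at 60.2 and 534 CPM (8.86-fold, 7.40 to 10.7), H2-Ab1 at 145 and 974 CPM (6.70-fold) and Cd74 at 466 and 3362 CPM (7.21-fold, 6.76 to 7.70). H2-DMb1 was 3.74-fold higher, while H2-DMa was at 225 and 272 CPM, below the 2-fold line. Ciita, the coactivator that switches the class II genes on, had 0 UMIs in 2 M and 12 UMIs in 10 cells in 10 M, too few to be tested.

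The promoters of the class II chain genes share a Y box, a CCAAT element read in reverse. The windows of H2-Aa and H2-Eb1, 250 bases before to 50 after the start of the gene, are shown because both genes were over 8-fold apart in the same cells. They are RefSeq sequences of GRCm38.p6, chr17:34287774-34288073 on the minus strand and chr17:34305617-34305916 on the plus strand, written in the direction of the gene. H2-Ab1 had no entry. Capitals mark GATTGG or its reverse complement CCAATC, found on either strand in 5292 of 32851 promoter windows of this length (16.1%).
H2-Aa: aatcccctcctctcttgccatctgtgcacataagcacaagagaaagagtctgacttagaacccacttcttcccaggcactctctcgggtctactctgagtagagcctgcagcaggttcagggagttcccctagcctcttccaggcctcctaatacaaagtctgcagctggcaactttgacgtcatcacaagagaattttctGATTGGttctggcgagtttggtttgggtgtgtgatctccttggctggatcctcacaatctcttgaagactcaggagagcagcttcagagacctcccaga
H2-Eb1: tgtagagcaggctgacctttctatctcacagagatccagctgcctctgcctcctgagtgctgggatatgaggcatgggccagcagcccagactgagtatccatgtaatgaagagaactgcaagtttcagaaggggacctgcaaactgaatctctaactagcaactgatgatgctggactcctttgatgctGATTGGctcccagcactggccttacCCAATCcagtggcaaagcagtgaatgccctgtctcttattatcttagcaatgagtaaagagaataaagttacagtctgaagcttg
The motif is a match of letters and says nothing of a factor bound there in these cells.

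The other 2 libraries stood on either side. H2-Aa in alveolar macrophages was at 1528 CPM in NB and 63.3 CPM in 18 M, and Cd74 at 4255 and 227 CPM. The order of the 4 libraries was thus NB, 10 M, 2 M and 18 M, which is not that of their labelled ages. The NB library held 541 of the 992 cells of the cluster led by Gzmk and 55 of 59 plasma cells. The 18 M library held 161 of the 163 cells of a B cell cluster led by Vpreb3 and Rag1. Whether the age labels of these libraries hold was not tested. B cells carry these genes at far higher levels, and Cd79a was at 16.5 CPM (13 cells) in 2 M and 28.3 CPM (23 cells) in 10 M in the macrophages. With cells holding defining markers of 2 types left out, the list's median was 3.31 and H2-Aa was at a log2 ratio of 3.73. The class II list had 1 gene called in T cells (Cd74), 4 in pFBs and 0 in B cells, NK cells, neutrophils, Csf1r monocytes and macrophages, endothelial and alveolar type II cells.

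**Figure D3:**
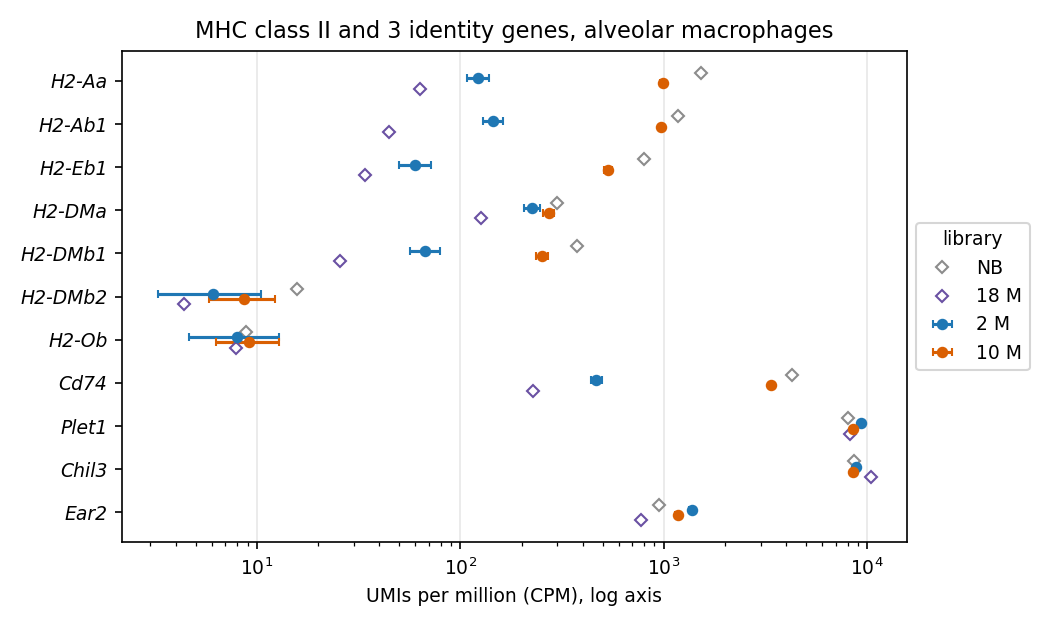
Levels in alveolar macrophages (CPM, log axis) of the 8 MHC class II genes tested and of 3 identity genes, Plet1, Chil3 and Ear2, in each of the 4 libraries; bars on the 2 M and 10 M points are exact 95% Poisson intervals. H2-Aa stands at 990 CPM in 10 M, near the NB library and far from the 122 CPM of 2 M, while Plet1, Chil3 and Ear2 lie close together in 2 M and 10 M.

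The 15 alveolar macrophage identity genes, all tested, had 0 calls and a median log2 ratio of -0.02. The counts of this paragraph stand beside 1.47% of all genes tested in this type higher and 0.837% lower. Chil3, a chitinase-like protein, was at 8763 and 8503 CPM and Car4, a carbonic anhydrase, at 381 and 447 CPM. Of 18 lipid handling genes 1 was lower, Ch25h, which makes 25-hydroxycholesterol, at 139 and 50.6 CPM (ratio 0.363, 0.300 to 0.438). Ptges, prostaglandin E synthase, was at 182 and 49.4 CPM (ratio 0.272) and Hpgds, prostaglandin D synthase, at 15.1 and 2.78 CPM. Also lower were the integrin Itga6 (17.9 and 2.78 CPM), Myo10, a myosin of filopodia (15.5 and 3.33 CPM), and the adhesion receptor Adgrl3 (29.2 and 8.61 CPM). Of 7 cell cycle genes tested 2 were lower, Mki67 (37 UMIs in 11 cells and 27 in 13) and Top2a (48 UMIs in 12 cells and 27 in 12). Higher were Rasef, a Rab GTPase, with 0 UMIs in 2 M and 97 UMIs in 54 cells in 10 M (at least 19.1-fold against a floor of 3 UMIs, exact 95% lower bound 15.2-fold), the matrix protein Ecm1 (5 and 132 UMIs) and the cell cycle inhibitor Cdkn2b (11.3 and 30.8 CPM). Scgb1a1, the club cell secretoglobin, was at 8.94 and 215 CPM in these macrophages, but with a mitochondrial limit of 10% its log2 ratio turned to -2.77. Of the 5 neutrophil genes kept as a measure of free RNA, 3 were tested in alveolar macrophages and all 3 were higher (S100a8, S100a9 and Lcn2), summing over the list to 60.7 and 258 CPM, and the part of free RNA was not tested.

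The Csf1r monocytes and macrophages rest on 17 cells in 2 M and 72 in 10 M, and 1 UMI in 2 M equals 6.08 CPM. Here 89 of 3113 genes were higher (2.86%) and 87 lower (2.79%), and with TMM scaling 144 and 34. Of 14 inflammatory genes 12 were tested and 4 were higher, with a median log2 ratio of 0.56. The monocyte chemoattractant Ccl2 had 19 UMIs in 4 cells in 2 M and 523 UMIs in 25 cells in 10 M (7.97-fold, 5.05 to 13.4), Cxcl1 126 UMIs in 4 cells and 1179 UMIs in 33 cells, and Ccl4 520 UMIs in 14 cells and 5041 UMIs in 52 cells (3162 and 8880 CPM). Ccl7 had 37 UMIs, all in 1 cell of 2 M, and 632 UMIs in 17 cells of 10 M, and its log2 ratio turned to -0.64 without cells holding defining markers of 2 types. Tnf was level, 365 and 324 CPM (ratio 0.888, 0.660 to 1.21). Of 8 interferon-stimulated genes tested Ifit1 and Cxcl10 were higher, and both changed sign when cells were typed by single markers. That typing takes any kept cell with a UMI of only 1 defining marker, whatever its cluster, so it compares another set of cells. Of 10 classical monocyte genes tested Ly6c2 was lower (857 and 405 CPM) and Vcan, versican, higher (12 and 89 UMIs). Pmp22, a membrane protein (2 and 80 UMIs), and S100a9 (54 and 663 UMIs in 2 and 16 cells) were also higher. Stap1, an adaptor of the Csf1 receptor (493 and 181 CPM), the superoxide dismutase Sod1 (268 and 96.9 CPM), the surface glycoprotein Cd24a (249 and 91.6 CPM), Tsc22d1 (182 and 49.3 CPM), Fam110a (146 and 31.7 CPM) and Cdc42ep3 (97.3 and 24.7 CPM) were lower. The complement genes C1qa, C1qb and C1qc, of interstitial macrophages, had UMIs in 2 cells of 2 M and in 16 to 17 cells of 10 M, with ratios of 1.12 to 1.55.

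The pFBs of the 10 M library had lower levels of fibrillar collagen and elastin mRNA and higher levels of interferon-stimulated genes and of Acta2 and Tagln. Of 18 collagen genes, all tested, 4 were lower and 0 called higher (median log2 ratio -0.42 beside -0.01 over all genes), against 1.39% of all genes lower. Col1a1 had 3066 UMIs in 89 of 94 cells in 2 M and 5220 UMIs in 360 of 407 cells in 10 M, 3455 and 1508 CPM (ratio 0.436, 0.417 to 0.456). Col1a2 was at 4728 and 2260 CPM, Col3a1 at 3192 and 1565 CPM (ratio 0.490) and Col14a1 at 668 and 332 CPM. Eln, elastin, was at 2397 and 912 CPM (ratio 0.381, 0.360 to 0.402), and Ltbp2, of elastic fibres, had 33 and 35 UMIs (ratio 0.272). Efemp1, fibulin-3, went the other way, 150 and 347 CPM (2.31-fold, 1.93 to 2.79). All 10 small leucine-rich proteoglycans, which bind collagen fibrils, had ratios under 1 (median log2 ratio -0.74), 2 of them past the 2-fold line, Podn (158 and 61.2 CPM) and Omd (17 and 32 UMIs), and Dcn, the defining marker, was at 7124 and 4929 CPM. Adamts2, which trims procollagen, was at 552 and 261 CPM (ratio 0.472). In NB pFBs Col1a1 was at 436 CPM and Eln at 186 CPM, and in 18 M at 21652 and 12112 CPM. These values come from unlike pFB clusters. The main cluster held 149 pFBs of NB, 92 of 2 M and 400 of 10 M, but 8 of the 193 in 18 M. There 104 and 81 pFBs were in other clusters, led by Col1a1. The part of this makeup was not tested, nor was whether the age labels of the NB and 18 M libraries hold. The values are not read as a course with age.

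Acta2, smooth muscle actin, was at 30.4 CPM (27 UMIs in 14 cells) in 2 M and 132 CPM (458 UMIs in 92 cells) in 10 M (4.35-fold, 2.95 to 6.67), and Tagln, another smooth muscle gene, at 54.1 and 216 CPM (4.00-fold). These were the 2 higher genes of the 10 tested among the 16 that the study took for myofibroblasts, a list chosen on these samples (median log2 ratio 0.40). The counts of this paragraph stand beside 3.23% of all tested pFB genes higher and 1.39% lower. Of the 14 alveolar fibroblast genes 0 were called (median 0.02), and of the 13 adventitial fibroblast genes tested Il33, an alarmin cytokine (42.8 and 142 CPM), and Ly6c1 (124 and 322 CPM) were higher and Col14a1 lower. Ccl7, of the study's chemokine list, was at 388 and 801 CPM (2.07-fold), and Ccl2 at 877 and 1145 CPM. Of 13 clock genes tested 3 were lower, the repressor Nr1d1 (263 and 116 CPM), Dbp (19.2 and 5.20 CPM) and Tef (29.3 and 14.2 CPM). The hour at which lungs were taken is not given in the sources used here, and its part was not tested. Further genes that led the lower side were the imprinted gene Peg3 (200 UMIs in 58 cells and 148 UMIs in 67 cells, ratio 0.190, 0.152 to 0.236), Cpe, carboxypeptidase E (44.0 and 8.09 CPM), the ephrin receptor Epha4 (53.0 and 12.1 CPM), Col4a4, of basement membrane (47.3 and 12.4 CPM), and the autophagy gene Atg14 (37.2 and 9.53 CPM).

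Of 22 interferon-stimulated genes 19 were tested in pFBs and 8 were higher, 0 lower (median log2 ratio 1.19), against 3.23% of all genes higher. Bst2, tetherin, had 52 UMIs in 36 cells in 2 M and 613 UMIs in 222 cells in 10 M (58.6 and 177 CPM, 3.02-fold, 2.27 to 4.09), and Isg15 was at 21.4 and 50.8 CPM. Ifit1 had 1 UMI in 2 M and 281 UMIs in 23 cells in 10 M, a ratio of 72.0 with an interval of 12.8 to 2855. Rsad2, viperin, had 0 UMIs in 2 M and 62 UMIs in 19 cells in 10 M, at least 5.30-fold higher against a floor of 3 UMIs (exact 95% lower bound 4.18-fold). The chemokine Cxcl10 was at 74.4 and 171 CPM. Over the same list the median was 0.12 in T cells, 0.04 in B cells, 0.53 in endothelial cells and 0.69 in Csf1r monocytes and macrophages.

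Genes of leukocytes were also higher in pFBs. S100a9 had 12 UMIs in 11 cells in 2 M and 1105 UMIs in 63 cells in 10 M (23.6-fold, 13.5 to 45.8), S100a8 6 and 498 UMIs, Ccl4 6 and 429 UMIs, Il1b 9 and 359 UMIs in 9 and 23 cells, and Rgs1, a regulator of leukocyte trafficking, 1 UMI and 138 UMIs in 30 cells (log2 ratio -0.36 with cells typed by single markers). Of the 6 class II genes tested 4 were higher, against 3.23% of all genes, with Cd74 at 109 and 401 CPM. Some markers of other cell types moved with them. Cd79a had a UMI in 4 pFBs in 2 M and 42 in 10 M (12.4 and 40.4 CPM), Csf3r summed to 0 and 11 UMIs, and Cd3e was level at 3.38 and 3.47 CPM (3 and 12 UMIs). Ptprc, the common leukocyte antigen, had a UMI in 8.51% and 13.5% of pFBs, and a defining marker of any other of the 9 types in 11.7% and 18.7%. Without the pFBs with a Ptprc UMI, the median of the class II list was -0.0093, Il1b was at a log2 ratio of -0.16 and H2-Aa at -0.22, while the collagen median stayed at -0.42, that of the interferon-stimulated list was 1.06, Acta2 was at 2.11 and Eln at -1.35.

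**Figure D4:**
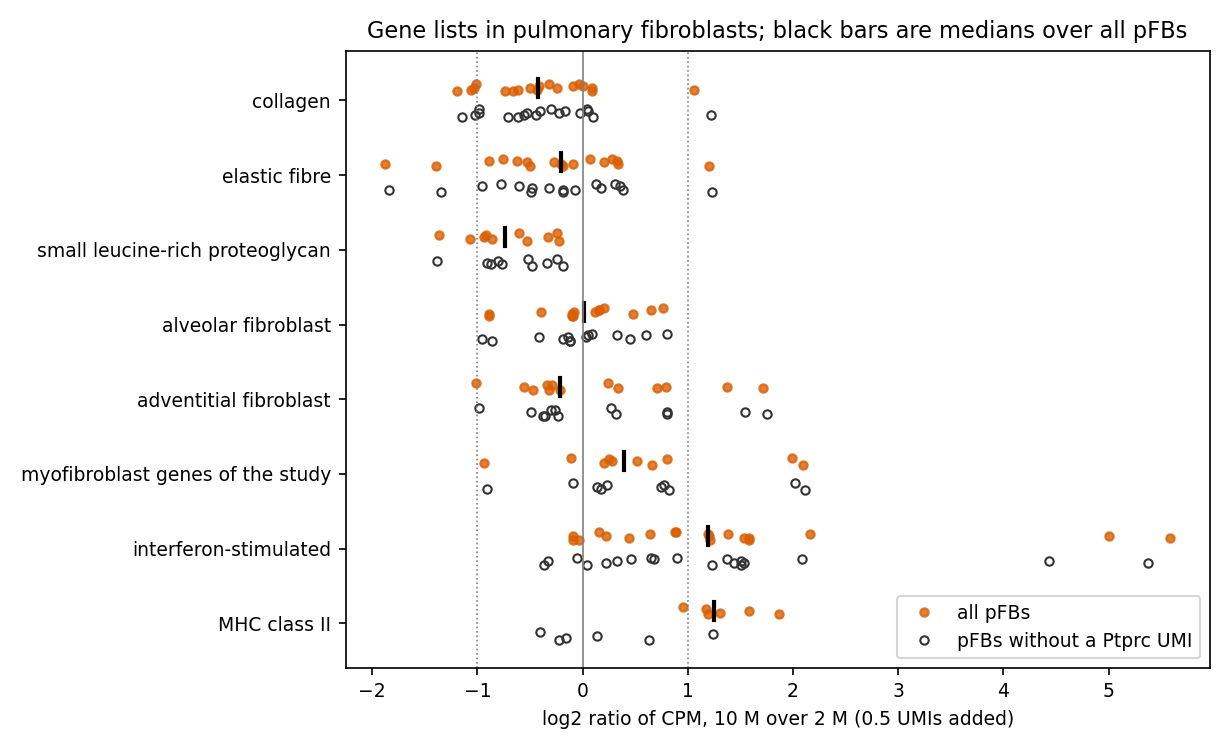
Log2 ratio of CPM, 10 M over 2 M, of each tested gene of 8 lists in pFBs, over all pFBs (filled, with the median as a black bar) and over pFBs without a Ptprc UMI (open); dotted lines mark 2-fold. Most collagens and the proteoglycans lie to the left of 0 in both sets, most interferon-stimulated genes to the right in both, and the class II genes tested have a median of 1.25 over all pFBs and -0.0093 without Ptprc.

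Endothelial cells rest on 38 cells in 2 M and 67 in 10 M, all in a single cluster. Its leading genes included Ccl21a, Lyve1 and Vwf, from the list of arterial, venous and lymphatic endothelium, so it is not of capillary cells alone. The capillary bed of the lung has general capillary cells and aerocytes, large cells over which gas is exchanged. Of 10 aerocyte genes, all tested, 8 were lower and 0 higher (median log2 ratio -1.30 beside -0.05 over all), against 5.81% of all genes lower. Car4 had 98 UMIs in 14 cells in 2 M and 90 UMIs in 19 cells in 10 M (494 and 197 CPM, ratio 0.399, 0.296 to 0.536), Ednrb, the endothelin B receptor, was at 499 and 206 CPM, Tbx2 at 217 and 48.1 CPM (ratio 0.222), Apln, apelin, at 106 and 37.2 CPM and Kdr, the VEGF receptor, at 1008 and 503 CPM. The marker Cdh5 was also lower, 1512 and 919 CPM (ratio 0.608, 0.523 to 0.707). Of 7 general capillary genes tested 1 was lower, Kit (26 UMIs in either library). Gpihbp1, which anchors lipoprotein lipase, was at 292 and 315 CPM. The median of the aerocyte list ranged from -1.66 to -0.99 over the alternatives tried. In a mixed type of few cells, another mix of endothelial cells, with fewer aerocytes, and less of each transcript per aerocyte cannot be told apart.

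Among other endothelial genes Ptgs2, cyclooxygenase 2, had 14 UMIs in 4 cells in 2 M and 1207 UMIs in 14 cells in 10 M (37.4-fold, 22.2 to 68.7). The neutrophil chemokines Cxcl1 and Cxcl2 were at 90.7 and 418 CPM and at 151 and 619 CPM. With cells holding defining markers of 2 types left out, Cxcl2 was at a log2 ratio of -0.011. Thbs1, thrombospondin, was at 80.6 and 313 CPM, Irf8, a factor of myeloid and B cells, had 3 and 68 UMIs (log2 ratio -0.37 with cells typed by single markers), and Ifi27l2a, an interferon-induced gene, 3 and 52 UMIs. Selp, P-selectin, which captures leukocytes, was at 318 and 722 CPM (2.27-fold, 1.73 to 3.03, but a log2 ratio of -0.089 as a mean over cells) and Prss23 at 131 and 411 CPM. Efnb2, of arteries, was at 383 and 94.1 CPM (ratio 0.246, 0.165 to 0.362) and Gja4, an arterial gap junction protein, at 186 and 78.8 CPM. Also lower were the sodium channel subunit Scn3b (40 UMIs in 8 cells and 8 UMIs in 8 cells), the sulfatase Sulf1 (323 and 50.3 CPM), Fbln2, fibulin-2 (383 and 63.4 CPM), Plat, tissue plasminogen activator (675 and 162 CPM), and the adhesion receptor Adgrg6 (207 and 39.4 CPM).

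Alveolar type II cells had like levels of surfactant genes in both libraries. Of 13 surfactant and lamellar body genes 11 were tested and 0 were called, median log2 ratio 0.03, where 1.71% of 6083 genes were higher and 1.45% lower (104 and 88 genes, and 134 and 57 with TMM scaling). Sftpc, surfactant protein C, had 99083 UMIs in 38 cells in 2 M and 267438 UMIs in 102 cells in 10 M, 175254 and 179451 CPM (ratio 1.02). Sftpb was at 7172 and 7261 CPM, Sftpa1 at 18979 and 23876 CPM and Abca3, the lamellar body lipid pump, at 693 and 638 CPM. Of 17 lipid synthesis genes tested 1 was lower, Scd1, the desaturase that makes monounsaturated fatty acids, with UMIs in all cells of both libraries and 4054 and 1976 CPM (ratio 0.487, 0.461 to 0.515), while Fasn, fatty acid synthase, was at 585 and 611 CPM. Of 11 transition and injury genes tested 0 were called, with Krt8, a keratin of the transitional state, at 555 and 574 CPM. Pmvk, of the mevalonate pathway, had a UMI in 21 of 38 cells in 2 M and 90 of 103 cells in 10 M (70.8 and 319 CPM, 4.51-fold, 3.27 to 6.40). Lcn2, an iron-scavenging defence protein, was at 699 and 1356 CPM (ratio 1.94, 1.74 to 2.17), just under the 2-fold line. Gdf15, a stress cytokine, was at 304 and 117 CPM (ratio 0.384, but a log2 ratio of 0.061 with cells typed by single markers), the ubiquitin ligase Fbxo32 at 54.8 and 11.4 CPM, the tetraspanin Tspan15 at 60.1 and 18.1 CPM, Foxp2 at 58.4 and 18.8 CPM and Pigt, of GPI anchoring, at 31.8 and 8.05 CPM.

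Some genes higher in alveolar type II cells belong to other cells. S100a8 had 3 UMIs in 3 cells and 353 UMIs in 13 cells, S100a9 9 and 468 UMIs, S100a6 5 and 199 UMIs, and the leukocyte proteoglycan Srgn 17 and 187 UMIs. A defining marker of another type had a UMI in 47.4% of these cells in 2 M and 35.9% in 10 M. With cells holding defining markers of 2 types left out, S100a9 was at a log2 ratio of -0.63 and Srgn at -0.074. With cells typed by single markers S100a6 was at -2.99. Cells of other types with a stray Lamp3 UMI can enter that set. Lamp3 had a UMI in 0.531% of T cells in 2 M and 0.346% in 10 M, and their number in the set was not counted. Scgb1a1, of club cells, was at 223 and 803 CPM (3.60-fold), with airway epithelial cells at 2 cells in 2 M and 9 in 10 M.

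Few genes were called in the same direction in several types. Of 12912 genes tested in at least 1 type, 1055 were higher in at least 1, 105 in at least 2 and 25 in at least 3, and 938, 58 and 8 were lower. Only Hbb-bt, higher in 7 of 8 types, and Hba-a1, higher in 6 of 9, reached 6 types, both haemoglobin genes. The haemoglobin list was highest in endothelial cells (median log2 ratio 5.70), alveolar type II cells (5.36) and neutrophils (3.45) and near 0 in alveolar macrophages (0.03) and pFBs (0.15), and erythroid cells made up 1.14% of kept cells in 2 M and 1.63% in 10 M. Hspa1b was higher in T, B and NK cells and alveolar macrophages and lower in Csf1r monocytes and macrophages, while 0 of the 13 heat shock genes tested in pFBs and in endothelial cells were called. The 20 tested nuclear genes of the respiratory chain had 0 calls in 7 of the 9 types and a median of 0.51 in pFBs, and no ribosomal protein gene was called outside neutrophils.

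**Figure D5:**
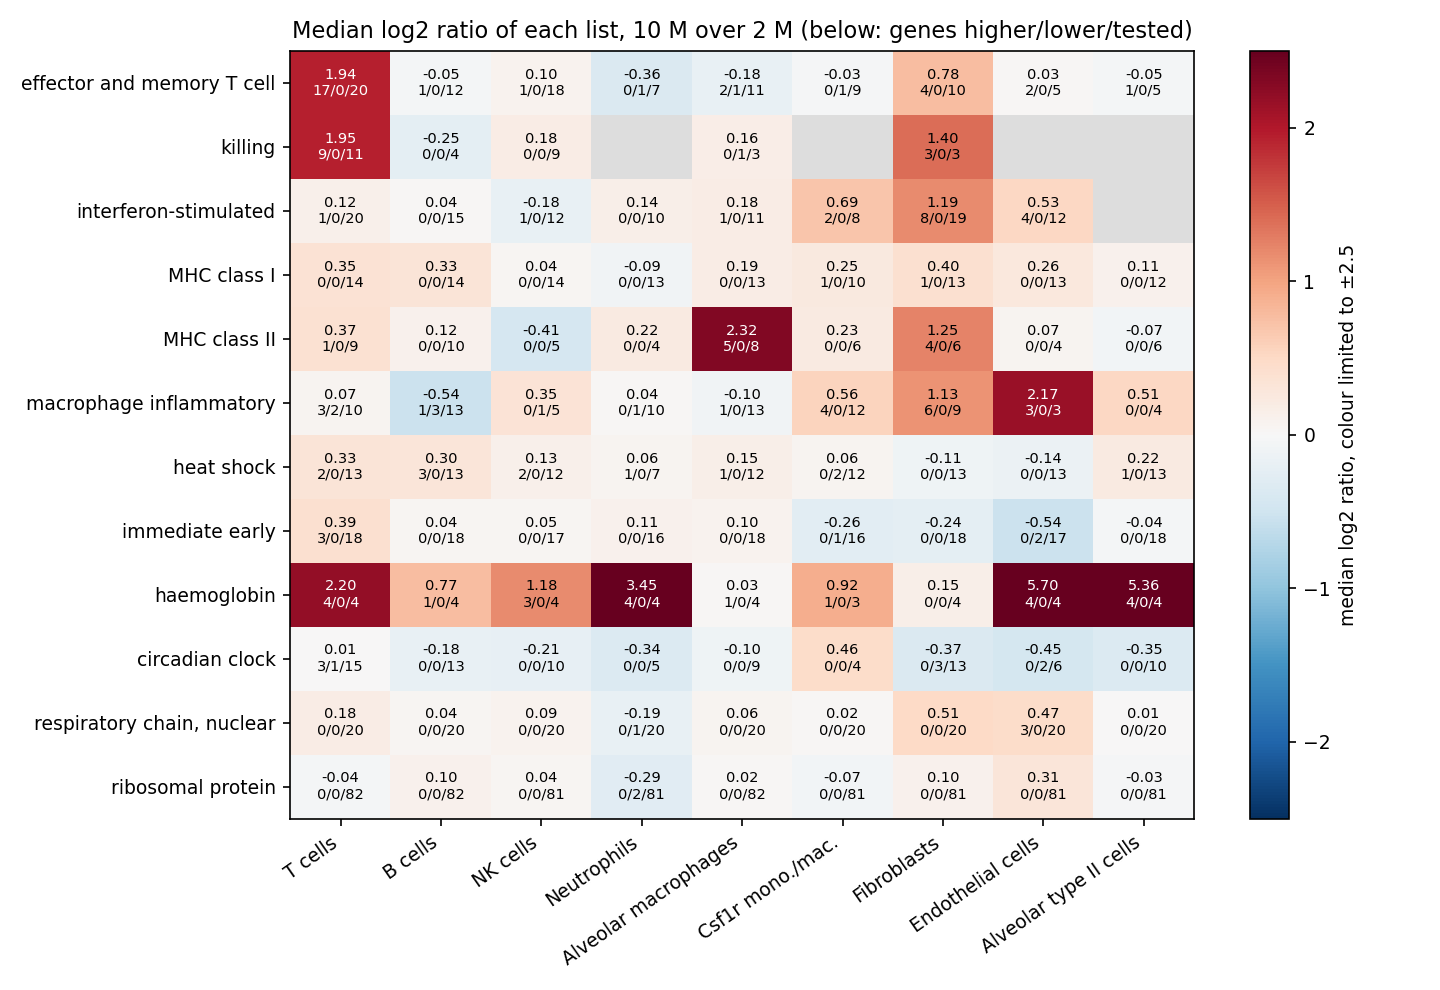
Median log2 ratio of CPM, 10 M over 2 M, of 12 gene lists in each type, with the numbers of genes higher, lower and tested below it; grey cells had under 3 genes tested. The strong values are the effector and killing lists, which share genes, in T cells, 1.94 and 1.95, MHC class II in alveolar macrophages, 2.32, and haemoglobin in endothelial and alveolar type II cells, 5.70 and 5.36.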

How the data were processed

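Single cells of whole lung were measured by 10x 3' sequencing. The deposited values are raw UMI counts per gene and barcode, which the authors made with Cell Ranger 3.0.2 on mm10. Both names come from the submitters' processing notes, where Seurat 2.0 is listed too. The file headers give a software version of 3.1.0.

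From these counts, the kept cells of the 4 libraries were log-normalized and clustered (2000 variable genes, 30 principal components, 20 neighbours, Leiden resolution 1) with Python 3.11.15, scikit-learn 1.9.0 and leidenalg 0.10.2. A cluster was named from at least 3 markers of a type, first by mean scaled level and then by fold over clusters of other types. Clusters with the defining markers of 2 types each in at least 40% of cells got no name, and no doublet caller was run. UMIs were summed per type and library. Levels have exact Poisson intervals, ratios exact conditional binomial intervals and shares exact Clopper-Pearson intervals, all at 95%. Log2 ratios have 0.5 UMIs added to each sum. Thinning drew UMIs without replacement. The ratio script was tested on simulated data.

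With 1 library an age there was no test. Named genes were each type's defining marker, list members, and the 6 called genes in each direction whose interval bound nearest 1 was farthest from 1, with haemoglobin, mitochondrial and ribosomal genes left out and genes known by a clone number not named. The types, the 56 gene lists and the members were chosen with earlier results of these data known. TMM scaling used edgeR 4.0.16. Leaving out structural cells with a Ptprc UMI and weighting clusters were added after the data were examined. A few genes are not reported here.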

Additional observations from a re-analysis of the deposited data

Results flagged for a closer look

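Of 66 genes called higher in one type and lower in another, 12 are among the genes taken by the rule for named genes, and their log2 ratios, 10 M over 2 M, are given here with 0.5 UMIs added to each sum. With 1 library a side the differences between types were not tested. Among lymphocyte genes, Ret was at 2.64 in T cells and -1.85 in NK cells, Gzma at 3.66 in T cells and -1.17 in alveolar macrophages, and Ccl5 at 2.86 in T cells and -1.92 in neutrophils, where it turned to between 0.076 and 0.71 under 5 alternatives. Among inflammatory genes, Ccl4 was at 4.08 in pFBs and -1.10 in B cells, and Il1b at 3.28 in pFBs and -1.08 in NK cells. Il1b in pFBs turned to -0.16 without cells with a Ptprc UMI and to -0.56 without the upper limits on genes and UMIs. Among stress genes, Hspa1b was at 2.58 in B cells and -1.07 in Csf1r monocytes and macrophages, and Gdf15 at 1.19 in Csf1r monocytes and macrophages and -1.38 in alveolar type II cells (0.061 there with cells typed by single markers). Among lipid genes, Ch25h was at 0.97 in endothelial cells and -1.46 in alveolar macrophages, Fabp4 at 1.35 in pFBs (-2.07 without the upper limits) and -2.80 in B cells, and Pmvk at 2.16 in alveolar type II cells and -1.18 in Csf1r monocytes and macrophages. Cpe was at 1.37 in T cells and -2.44 in pFBs, and Fam110a at 1.78 in pFBs and -2.19 in Csf1r monocytes and macrophages.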

How the results depend on the processing

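Of 72 values of the share ratios under alternatives, 71 stayed within their interval, and that of B cells was 1.02 with cells typed by single markers. Counts of called genes moved over 1.5 times in 65 of 240 values, list medians moved in 49 of 696 and turned in 2, and single genes turned in 40 of 7510. TMM scaling shifted all log2 ratios by 0.28 in neutrophils, 0.19 in Csf1r cells (Csf1r monocytes and macrophages), 0.16 in endothelial cells and 0.11 in B cells. With at least 100 UMIs a gene the genes called were higher in T cells 173, B cells 13, NK cells 10, neutrophils 6, alveolar macrophages 33, Csf1r cells 25, pFBs 118, endothelial cells 39 and alveolar type II cells 19, and lower in T cells 35, B cells 19, NK cells 3, neutrophils 19, alveolar macrophages 7, Csf1r cells 11, pFBs 31, endothelial cells 36 and alveolar type II cells 3. With no minimum the genes called were higher in T cells 526, B cells 94, NK cells 95, neutrophils 48, alveolar macrophages 199, endothelial cells 266 and alveolar type II cells 178, and lower in T cells 218, B cells 174, NK cells 162, neutrophils 430, alveolar macrophages 169, Csf1r cells 229, pFBs 262, endothelial cells 468 and alveolar type II cells 274. At equal totals the genes called were higher in T cells 44, B cells 15, NK cells 19, neutrophils 10, alveolar macrophages 15, Csf1r cells 41, pFBs 54, endothelial cells 79 and alveolar type II cells 26, and lower in T cells 25, B cells 24, NK cells 30, neutrophils 43, alveolar macrophages 27, Csf1r cells 53, pFBs 48, endothelial cells 128 and alveolar type II cells 18. With TMM scaling the genes called were higher in neutrophils 76, Csf1r cells 144 and endothelial cells 217, and lower in neutrophils 46, Csf1r cells 34, endothelial cells 134 and alveolar type II cells 57. With cells typed by single markers the genes called were higher in B cells 87 and Csf1r cells 55, and lower in alveolar macrophages 193 and endothelial cells 84. Without cells holding markers of 2 types the genes called were lower in neutrophils 83 and endothelial cells 134.

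List medians moved to 1.97 (MHC class II, alveolar macrophages, no upper limits) and 3.31 (without cells holding markers of 2 types), -0.73 (naive T cell genes, single markers and also the mean over cells) and -0.35 (cluster makeup), 0.24 (effector and memory T cell genes, cluster makeup), 0.17 (inflammatory genes, Csf1r cells, single markers), -1.14 (granule genes, no minimum), and for surfactant genes 0.23 (single markers), 0.12 (TMM) and 0.077 (without Ptprc). The medians of class II genes in pFBs without Ptprc, -0.0093, and of killer lectin-like receptors in T cells at the 2 M cluster makeup, -0.18, turned sign. Signs of single genes, as log2 ratios, turned as follows. Without upper limits on cells the sign turned for Fabp4 in pFBs -2.07, H2-Ab1 in pFBs -0.10 and Il1b in pFBs -0.56. With a mitochondrial limit of 10% the sign turned for Scgb1a1 in alveolar macrophages -2.77. With at least 1000 UMIs a cell the sign turned for Ccl5 in neutrophils 0.15. At Leiden resolution 2 the sign turned for Ccl5 in neutrophils 0.17. With both libraries clustered alone the sign turned for Ccl5 in neutrophils 0.17. With single markers the sign turned for Ccl5 in neutrophils 0.076, Cxcl10 in Csf1r cells -1.80, a clone-numbered gene in Csf1r cells -2.76, Ifit1 in Csf1r cells -3.14, Rgs1 in pFBs -0.36, Irf8 in endothelial cells -0.37, Gdf15 in alveolar type II cells 0.061, S100a6 in alveolar type II cells -2.99, S100a9 in alveolar type II cells -0.12 and Srgn in alveolar type II cells -2.26. Without cells holding markers of 2 types the sign turned for Ccl5 in neutrophils 0.71, Ccl7 in Csf1r cells -0.64, Cxcl2 in endothelial cells -0.011, S100a9 in alveolar type II cells -0.63 and Srgn in alveolar type II cells -0.074. As a mean over scaled cells the sign turned for Clu in pFBs -0.22 and Selp in endothelial cells -0.089. Without structural cells with a Ptprc UMI the sign turned for H2-Aa in pFBs -0.22, H2-Ab1 in pFBs -0.15, Il1b in pFBs -0.16 and S100a9 in alveolar type II cells -0.057. At the 2 M cluster makeup the sign turned for Cxcr6 in T cells -0.62, Havcr2 in T cells -0.63, Id2 in T cells -0.015, Itgb1 in T cells -0.056, Klra9 in T cells -0.047, Klrc2 in T cells -0.043, Klre1 in T cells -0.31, Klrg1 in T cells -0.56, Klrk1 in T cells -0.24, Lgals1 in T cells -0.048, Pdcd1 in T cells -0.56 and Tnfrsf9 in T cells -0.10. Fewer UMIs or a higher minimum leave fewer genes that can be called, and the other causes were not tested. No paired analysis was possible because each age had 1 library, so no replicate could be left out either.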

Other observations

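Cell types outside the 9 also differed in number. Dendritic cells, which present antigen to T cells, went from 26 cells in 2 M to 65 in 10 M, a share ratio of 1.76 (95% interval 1.10 to 2.89). Basophils and mast cells went from 11 to 37 cells (ratio 2.37, 1.18 to 5.15), platelets from 8 to 29 cells (2.55, 1.14 to 6.46) and erythroid cells from 63 to 128 cells (1.43, 1.05 to 1.97). For pericytes and smooth muscle cells, 37 and 69 cells, and innate lymphoid cells, 15 in either library, the interval included 1. Plasma cells numbered 0 and 3.

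Genes of the immediate early response, which digestion can switch on, were also counted. In T cells 3 of 18 tested were higher (Fosb, Ier3 and Atf3, list median log2 ratio 0.39, against 3.31% of all genes higher), in endothelial cells 2 of 17 were lower (Fosb and Btg2, median -0.54, against 5.81% of all genes lower), and 0 of 18 were called in B cells, alveolar macrophages, pFBs and alveolar type II cells. Their part in other results was not tested. Of 8 glucocorticoid response genes tested in endothelial cells 3 were lower (Per1, Sgk1 and Zbtb16), against the same 5.81%.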
